A study of Homo sapiens with 12 samples.

Results

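The regions described here, called weak but reproducible, hold FoxK1 peaks in HepG2. This line from a human hepatocellular carcinoma often stands in for hepatocytes. Each region has a peak in every one of 6 FoxK1 peak lists, as the rule required. In at least 4 of these lists its strongest peak ranks in the lower part of the list. There were 1682 such regions, among 15887 with a peak in every list and 68127 merged regions in all. They were chosen by the percentile of −log10 q, the peak caller's false discovery measure, within each list. A region was weak in a list when its strongest peak there lay below the 50th percentile of that list's peaks. The other 14205 regions with a peak in every list are called the other shared regions.

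FoxK1 was mapped by chromatin immunoprecipitation and sequencing. All cells spent 16 h in serum-free medium, after which 3 libraries came from cells given 100 nM insulin for 20 min and 3 from untreated cells. The 6 input libraries were not analysed here. Nothing in the labels says that replicates were separate cultures, so a p-value here covers no more than library-to-library spread, which may be technical. Coordinates are in build hg19.

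FoxK1 is a forkhead transcription factor, one of a family whose winged-helix domain binds short AT-rich motifs. In liver cells it is known for entering the nucleus after insulin, while FoxO factors leave it. The height of a peak depends in general on how often a factor sits at the site, how well it crosslinks and how open the chromatin is. No genome or gene annotation of build hg19 was used here, so regions carry no gene names and no sequence is shown.

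The lists held between 26082 and 48208 peaks, and total reads per library are unknown. The number of fragments at each summit could be worked out from the deposited fold and p-value, and it gives the depth behind each peak. The replicate 3 lists were the shallowest and shortest of each treatment, with a median of 21 fragments at a summit after insulin and 22 without it, against 27 to 43 in the other lists. The middle of a list, where the threshold lay, corresponded to a −log10 q of 12.2, 15.6 and 7.38 in insulin replicates 1, 2 and 3 and of 13.97, 9.94 and 6.41 in untreated replicates 1, 2 and 3.

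The members made up 10.6% of the regions with a peak in every list. This share depends on the rule and on the lists and measure it is applied to, so nothing is read from it. It was 15.9% with lists of equal length and 15.5% when peaks were ranked by fold. Of the 1682, 711 were weak in 4 lists, 583 in 5 and 388 in all 6. A further 1097 shared regions were weak in 3 lists and fell just outside, and 8959 were weak in none. Strength therefore passed gradually from the members to the rest, with no gap at the threshold.

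The regions next to the threshold show this. Just inside it, at chromosome 11, 129938531 to 129940042, the percentiles were 72.2, 58.6 and 35.3 in insulin replicates 1 to 3 and 40.1, 49.99 and 17.1 in untreated replicates 1 to 3. Untreated replicate 2 was the list that brought it in. Just outside, at chromosome 1, 95581296 to 95582106, they were 54.3, 51.0 and 44.3 after insulin and 50.02, 42.2 and 18.6 without it. Untreated replicate 1 was the list that kept it out. The first region had 32 fragments at its summit in untreated replicate 2 and the second 41 in untreated replicate 1.

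The members were lower than the other shared regions by every measure of height. These measures come from the values that chose the members and are given as a description. Their median fold over background was 5.05, 4.65 and 4.09 in insulin replicates 1, 2 and 3 and 3.45, 3.27 and 3.65 in untreated replicates 1, 2 and 3. The other shared regions had median folds of 10.95, 10.01 and 6.56 after insulin and 6.96, 5.47 and 5.47 without it. The median member summit held 27, 39 and 16 fragments after insulin and 43, 29 and 18 without it. At the other shared regions these medians were 66, 89 and 31, and 93, 55 and 31. Over all peaks of a list they were 27, 38 and 21 after insulin and 43, 35 and 22 without it. By fragments, members were thus not low within insulin replicates 1 and 2 and untreated replicate 1. A fold of at least 3 in every list was reached by 671 members (39.9%) and by 12976 other shared regions (91.3%). The lowest −log10 p of any peak was 3.002, and the members' median lay between 6.92 and 15.7. Their lowest −log10 q was 0.839, 0.913 and 0.788 in insulin replicate 3, untreated replicate 2 and untreated replicate 3. The lowest at the other shared regions was 0.780, 0.876 and 0.788 in these lists. A peak in every list therefore does not mean that a strict false discovery limit was passed in each. The members' median −log10 q lay between 4.14 and 13.1. In 556 members (33.1%) at least 1 list had a −log10 p under 5.

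**Figure D1:**
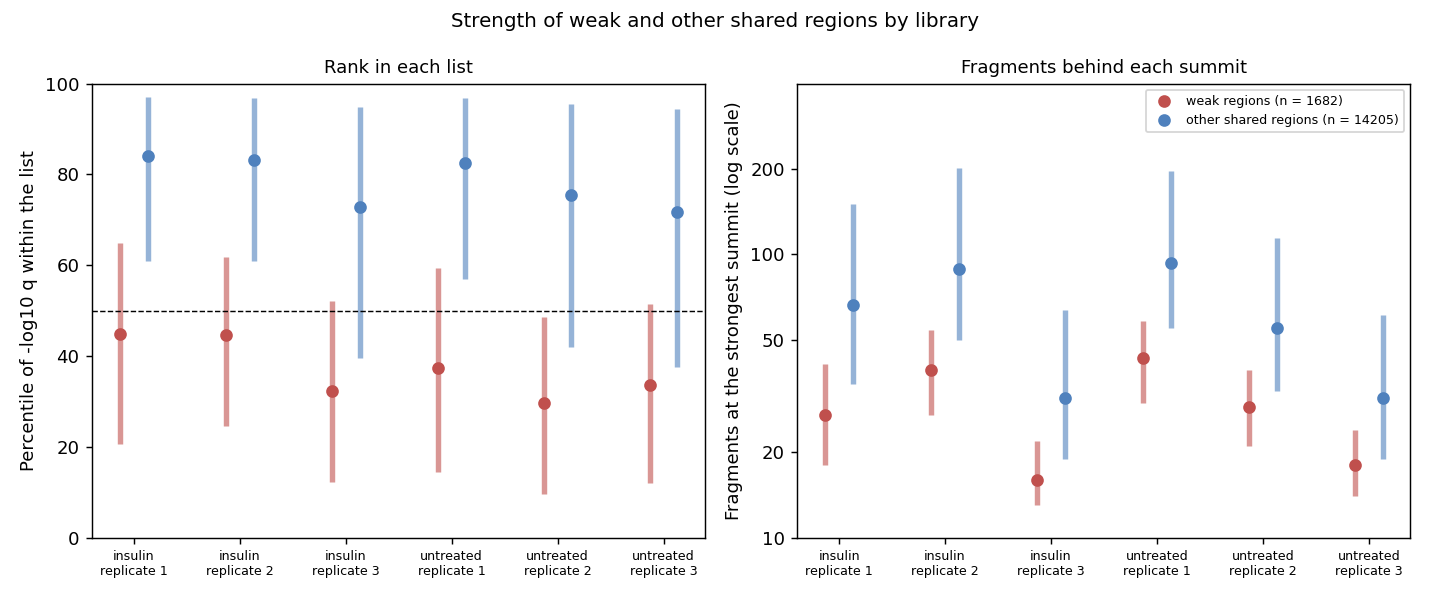
For each of the 6 libraries (x axis), the left panel plots the percentile of −log10 q within the list and the right panel, on a log scale, the fragments at the strongest summit. Points are medians and bars run from the 10th to the 90th percentile of regions, with 1682 weak regions in red and 14205 other shared regions in blue. The dashed line is the 50th percentile. The red medians lie between 29.6 and 44.8 and the blue ones between 71.7 and 84.0.

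How weak a member looked depended on the list. Their median percentile was 44.8 and 44.6 in insulin replicates 1 and 2, 37.4 in untreated replicate 1, 33.7 in untreated replicate 3, 32.3 in insulin replicate 3 and 29.6 in untreated replicate 2. The 3 longest lists thus ranked them highest. These lists also ranked the other shared regions highest, with medians of 82.5 to 84.0 against 71.7 to 75.4 in the rest. The share of members that were weak was lowest in insulin replicate 1 (64.1%) and insulin replicate 2 (68.6%) and highest in untreated replicate 2 (92.6%). Of the other shared regions, 2.09% to 4.82% were weak in the 3 longest lists and 16.0% to 19.9% in the rest. Of the 583 members weak in 5 lists, insulin replicate 1 was the list that ranked the region higher for 206 and untreated replicate 2 for 29. Of the 711 weak in 4 lists, the pair that ranked the region higher was insulin replicates 1 and 2 for 173, insulin replicate 1 and untreated replicate 1 for 106, and insulin replicate 2 and untreated replicate 1 for 96. Longer lists hold more peaks below any shared region, and the part of list length in this order was not tested.

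Members varied in how evenly they ranked. The gap between a member's highest and lowest percentile had a median of 40.1, and it passed 50 for 340 members. Only 4 members were below the 25th percentile in every list, while 70 rose above the 75th in at least 1. Across the 1682 members, Spearman's rho of the percentiles of a pair of libraries lay between 0.0192 and 0.276, against 0.742 to 0.890 across all shared regions. The rule limits the members' range of percentiles, so low values follow in part from the choice. The highest was between insulin replicate 2 and untreated replicate 2.

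The most even member lay on chromosome 5, 176923325 to 176925270. Its percentiles were 32.5, 26.2 and 28.3 in insulin replicates 1 to 3 and 33.6, 29.4 and 32.5 in untreated replicates 1 to 3, with folds between 3.11 and 4.10. All 6 lists gave it nearly the same rank, and its 6 summits spread over 540 bp. Next came chromosome 6, 6025906 to 6026381, with percentiles between 44.3 and 51.8, folds between 4.25 and 6.87 and summits within 88 bp. They were followed by regions on chromosome 11 at 66359838 to 66360741, chromosome 10 at 31608983 to 31610849 and chromosome 3 at 132377907 to 132379868, with spreads between 7.76 and 10.03.

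At the other extreme stood chromosome 16, 75267734 to 75268389. It ranked at 82.5, 39.97 and 7.37 in insulin replicates 1 to 3 and at 48.6, 31.9 and 55.3 in untreated replicates 1 to 3. The matching summits held 76, 44 and 20 fragments, and 64, 38 and 24. The same treatment thus gave this region its highest and its lowest rank. Chromosome 1, 196407313 to 196407930, ranked at 11.6, 41.3 and 65.6 after insulin and at 85.6, 47.6 and 48.6 without it, with a fold of 16.0 in untreated replicate 1 and 3.97 in insulin replicate 1. The gap was 74.4 at chromosome 6, 31744596 to 31745467. It was 73.8 at chromosome 10, 77514974 to 77515868, where both replicate 3 lists gave the lowest ranks, and 72.7 at chromosome 14, 71373751 to 71375950.

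The weakest member by mean percentile was chromosome 2, 178119007 to 178119904. Its percentiles were 5.99, 4.80 and 18.0 in insulin replicates 1 to 3 and 1.53, 8.67 and 5.41 in untreated replicates 1 to 3. Folds there were 2.80, 2.56 and 3.20 after insulin and 2.03, 2.50 and 2.49 without it, on 15 to 29 fragments. It was near the bottom of every list, and only 27 bp of it lay inside a peak of all 6. Chromosome 22, 20118486 to 20119271, had percentiles between 5.56 and 26.7 and folds between 2.43 and 4.21, with summits within 128 bp. Regions on chromosome 18 at 74705307 to 74706340, chromosome 3 at 13322826 to 13324139 and chromosome 10 at 5596108 to 5596985 had mean percentiles between 13.8 and 14.6.

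Whether such sites return in a library that had no part in choosing them was tested by leaving each list out. Regions were built on 5 lists, members were those weak in at least 4 of the 5, and both classes were then read in the sixth. The weak regions had a peak in the left-out list for 96.0%, 98.8% and 66.3% of regions when this was insulin replicate 1, 2 or 3, and for 93.5%, 73.0% and 59.8% when it was untreated replicate 1, 2 or 3. The other regions of all 5 lists were found again for between 87.8% and 99.9%. Regions of a single one of the 5 lists had a peak in the sixth for between 4.39% and 22.8%. Weak regions were thus found again less often than the other shared regions in 6 of 6 libraries, by 14.8 percentage points on average (exact sign-flip test, two-sided p = 0.03125, which is as low as 6 libraries can give, and 0.0417 after Benjamini-Hochberg adjustment over 4 tests). With the 3 same-numbered sets of libraries as units, the exact sign-flip p was 0.25, the smallest that 3 sets allow, for this result and for the rank and summit differences described next. The call at 6 libraries is therefore lost if same-numbered libraries are not independent. Each library also helped choose the regions read in the other lists, so the 6 held-out differences are not independent. Ranks of shared regions went together between libraries, and low peaks lie nearer the limit of calling. That weak regions would be found again less often could thus be foreseen from the choice, and the p-value adds little to the values themselves. The difference was -1.13 points for insulin replicate 2 and -27.9 for untreated replicate 3. It was widest for the 3 shortest lists.

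The weak regions also ranked low in the list left out. Where found, their median percentile was 47.3, 46.4 and 32.4 in insulin replicates 1, 2 and 3 and 37.5, 26.9 and 33.7 in untreated replicates 1, 2 and 3. That of the other regions was 83.5, 82.7 and 71.8 after insulin and 81.9, 74.2 and 70.5 without it. The mean difference was -40.1 percentiles, with the same sign in 6 of 6 libraries (two-sided exact sign-flip p = 0.03125, adjusted 0.0417, and 0.25 over the 3 same-numbered sets). Between 55.8% and 88.3% of the weak regions found again were weak there too, against 4.24% to 23.03% of the others. The libraries read the same places in the genome, so this test covers the spread between libraries and not that between regions. Ranks of all shared regions went together between libraries (Spearman's rho 0.742 to 0.890). A lower rank at regions weak in the other lists could thus be foreseen, and the p-value adds little to the difference itself. In lists that had not chosen them, most of the regions found were thus again weak.

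**Figure D2:**
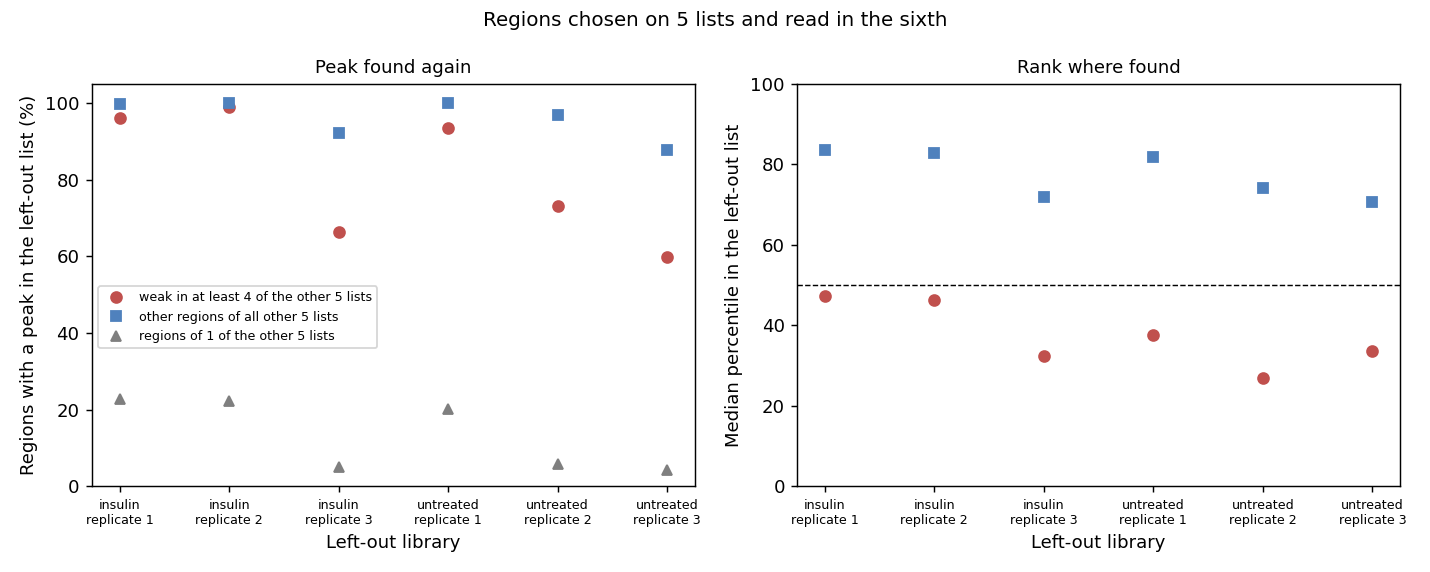
Regions were chosen on 5 lists and read in the list named on the x axis. The left panel plots the percent of regions with a peak there, for weak regions (circles), other regions of all 5 lists (squares) and regions of 1 of the 5 lists (triangles). The right panel plots the median percentile where found, with the 50th percentile dashed. Circles lie below squares in every library, with differences from -1.13 to -27.9 percentage points on the left and from -36.3 to -47.3 percentiles on the right.

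Summits of the members lay less precisely than those of the other shared regions. The summit offset, the distance of a library's strongest summit from the median summit of the other 5 libraries, had a median of 51, 50 and 76.5 bp at the members in insulin replicates 1, 2 and 3 and of 47, 61 and 83.5 bp in untreated replicates 1, 2 and 3. At the other shared regions it was 20, 19 and 29 bp after insulin and 19, 24 and 31 bp without it. The offset was larger at the members in 6 of 6 libraries, by 37.8 bp on average (two-sided exact sign-flip p = 0.03125, adjusted 0.0417, and 0.25 over the 3 same-numbered sets). Each library is measured against the summits of the other 5, so the 6 differences are not independent. Offsets were larger at low ranks in all shared regions, so the direction could be foreseen from the choice of low ranks. Offsets over 200 bp occurred at 12.7% to 23.1% of members and at 3.06% to 6.36% of the other shared regions. All 6 summits lay within 100 bp of each other at 209 members (12.4%) and at 8261 other shared regions (58.2%).

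The offset moved with rank and with the number of fragments in all shared regions, so it is not a property of the members alone. In insulin replicate 3, for example, the median offset of all shared regions went from 120 bp in the lowest 10 percentiles, where summits held a median of 13 fragments, to 16 bp in the highest 10, where they held 64. Within bands of 10 percentiles, members still had the larger offset in 39 of 40 comparisons that had at least 20 regions of each class, by a median ratio of 1.40. The exception was untreated replicate 1 between the 10th and 20th percentiles. Members in such a band were weak in most other lists as well, so the summits they were measured against also came from low peaks. Summit positions did not enter the choice of members, but fragments did through −log10 q, and the part of fragment number in the offset was not tested.

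**Figure D3:**
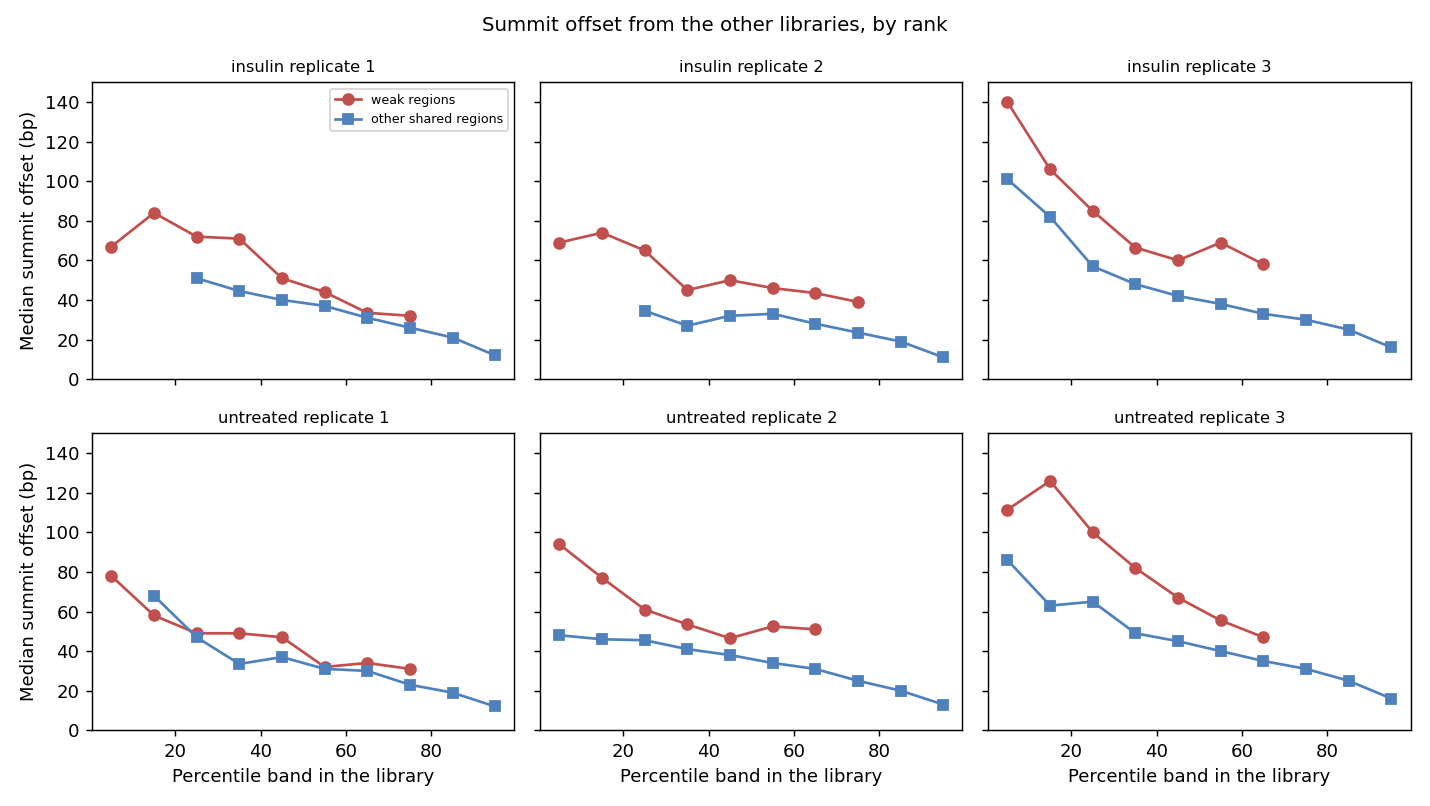
Each panel is 1 library, the x axis is the band of 10 percentiles in which the region ranks there, and the y axis is the median distance in bp of the library's summit from the median summit of the other libraries. Red circles are weak regions and blue squares other shared regions, shown where a band had at least 20. Both are higher at the left than at the right end of each panel, and red lies above blue in 39 of the 40 bands that show both.

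No difference between treatments was detected in the offset at members. The libraries' medians averaged 59.2 ± 15.0 bp (SD, n = 3) after insulin and 63.8 ± 18.4 bp (SD, n = 3) without it, a difference of -4.67 bp, which is less than the SD of each treatment (exact permutation test, two-sided p = 0.7; 3 against 3 cannot go below 0.1). The sign rested on single libraries, since the difference was 3.33 bp without insulin replicate 2 and 4.58 bp without untreated replicate 3. In both treatments replicate 3 had the largest offset and the fewest fragments.

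The 5 members with the tightest summits ranked near the middle of the lists. Their mean percentiles lay between 42.9 and 50.6, against a median of 37.7 over all members. At chromosome 5, 178691732 to 178692284, the 6 summits spanned 8 bp. Its percentiles were 68.1, 46.1 and 52.9 in insulin replicates 1 to 3 and 35.9, 46.9 and 48.6 in untreated replicates 1 to 3, and its folds were 8.43, 5.07 and 5.47, and 3.86, 4.13 and 4.56. Every insulin fold was above every untreated fold, while the percentiles of the treatments overlapped. Folds of different lists are not on a common scale, so no change is read from this. At chromosome 2, 241836291 to 241837097, the summits spanned 30 bp with percentiles between 12.7 and 68.6. The span was 28 bp at chromosome 9, 116163099 to 116163936. It was 29 bp at chromosome 17, 648141 to 648629, and at chromosome 20, 9266215 to 9266675. Of these 5, the region on chromosome 2 was weak in 5 lists and the others in 4.

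The 388 members weak in all 6 lists had the loosest summits. Their 6 summits spanned a median of 374.5 bp, against 260 bp in members weak in 5 lists, 215 bp in those weak in 4 and 86 bp in the other shared regions. Merging can chain peaks that do not all meet, and 142 members (8.44%) had no base inside a peak of every list, compared with 88 (0.620%) of the other shared regions. Among the members weak in all 6 lists this was 64 (16.5%). Such regions hold neighbouring peaks with no stretch that all 6 lists share. With these 142 counted among the other shared regions instead of the members, the offset difference between the classes was 34.7 bp. The median stretch common to all 6 lists was 268 bp in members and 444 bp in the other shared regions. Regions themselves were of like width, 1026.5 and 1102 bp at the median, and 81.3% and 82.8% had exactly 1 peak per list.

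Member peaks were broader than peaks of the same rank in regions of a single list. Among peaks between the 25th and 50th percentile of their list, those in members had a median width of 556.5, 728 and 497 bp in insulin replicates 1, 2 and 3 and of 618.5, 579 and 521 bp in untreated replicates 1, 2 and 3. In regions of a single list, the median width of peaks in this band was 296, 375 and 365 bp for insulin replicates 1, 2 and 3, and 360, 356 and 373 bp for the untreated ones. A wider peak can meet others more easily when regions are merged, and the part of merging in this difference was not tested. Peaks in all regions with a peak in every list were broad as well, with medians from 459 to 687 bp. Over all ranks, the strongest peaks of members were narrower at the median than those of the other shared regions in every library. The widths were 571.5 against 717 bp in insulin replicate 1 and 619 against 800 bp in untreated replicate 1. In the replicate 3 lists, peaks of regions found in 1 to 5 lists had median widths of 355 to 388 bp with no steady order, and only regions of all 6 lists were wider. The fold in this band was lower at members than in regions of a single list in replicates 1 and 2 of each treatment, such as 4.72 against 5.27 in insulin replicate 1. It was higher in replicate 3, at 4.33 against 4.10 after insulin and 3.85 against 3.65 without it.

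These broad peaks stood on a higher local background, the number of fragments the caller expected at the summit. In the same band it was 4.55, 7.49 and 2.88 at members after insulin and 11.9, 7.97 and 3.797 without it, against 2.61, 3.91 and 2.72 and 4.30, 4.50 and 3.41 in regions of a single list. The difference was large in the replicate 1 and 2 lists and small in the replicate 3 lists, where many peaks sit at the lowest background of the list. There, 36.0% and 36.9% of members stood at that floor in the insulin and untreated list, against 24.4% and 25.4% of the other shared regions. Compared with the other shared regions, members had a somewhat lower background in every library, such as 4.55 against 5.12 in insulin replicate 1 and 11.4 against 13.2 in untreated replicate 1. Background and rank both enter the caller's score, and their parts were not tested.

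**Figure D4:**
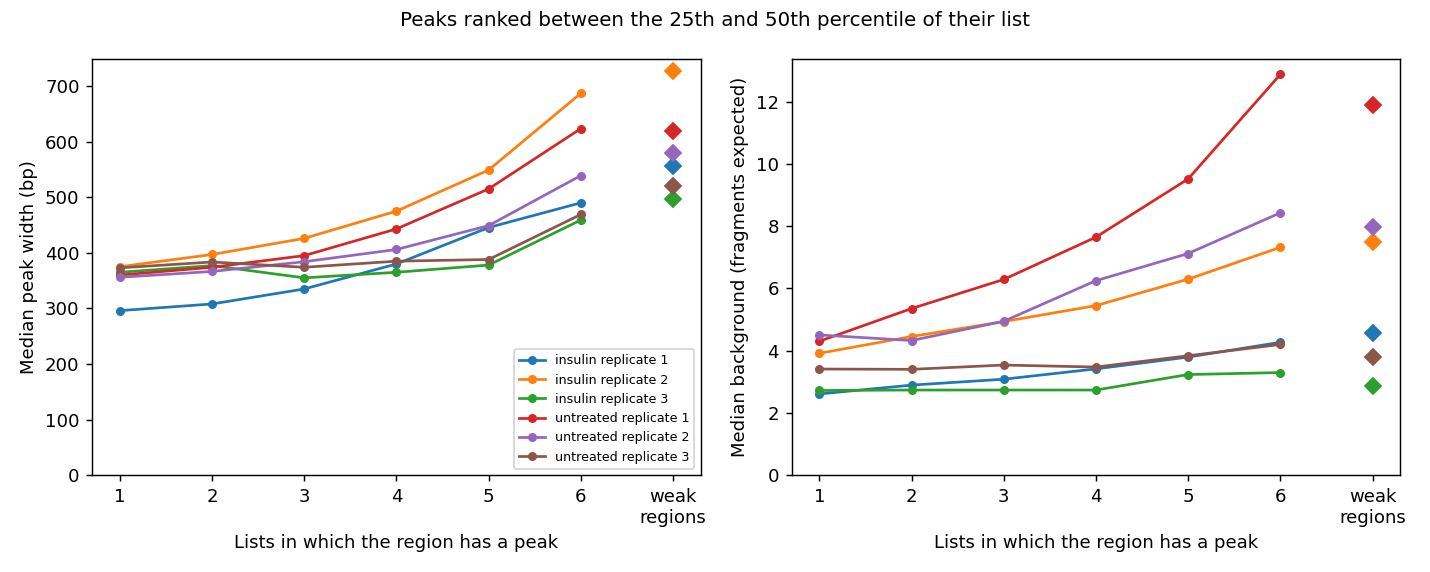
For peaks between the 25th and 50th percentile of their own list, the left panel plots the median peak width in bp and the right panel the median background in fragments, against the number of lists in which the region has a peak. Each colour is a library, and diamonds at the right are the peaks in weak regions, which are part of the peaks at 6. Width at weak regions lies between 497 and 728 bp, and at regions of a single list between 296 and 375 bp.

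The nearest shared region lay a median of 20024 bp from a member and 20291 bp from another shared region. A neighbour within 10 kb was found for 596 members (35.4%) and for 34.4% of the other shared regions. The nearest shared neighbour was itself a member for 198 of 1682 members (11.8%) and for 1473 of 14203 other shared regions with a neighbour on their chromosome (10.4%). The nearest other member lay a median of 279688 bp away, and 96 members had another member within 10 kb. Distance to the nearest shared region was thus alike in both classes. Members were 10.6% of the shared regions, so few close member neighbours go with their number and nothing is read from the 96. Of the 2199 windows of 1 Mb with any shared region, 1038 held a member, 639 of them exactly 1 and 22 at least 5. The window with most was chromosome 2, 20000001 to 21000000, where 10 of 30 shared regions were members. It was followed by chromosome 16, 67000001 to 68000000, with 9 of 31.

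By chromosome, the share of shared regions that were members ranged from 4.44% on chromosome X (8 of 180) to 14.6% on chromosome 13 (47 of 322). Chromosome 22 had 14.2% (52 of 365) and chromosome 8 had 12.8% (78 of 609). Low shares were found on chromosome 21 (7.02%, 8 of 114) and chromosome 12 (7.64%, 56 of 733), and the other autosomes lay between 8.57% and 12.3%. No test over regions was made, and the counts behind the lowest shares are small.

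**Figure D5:**
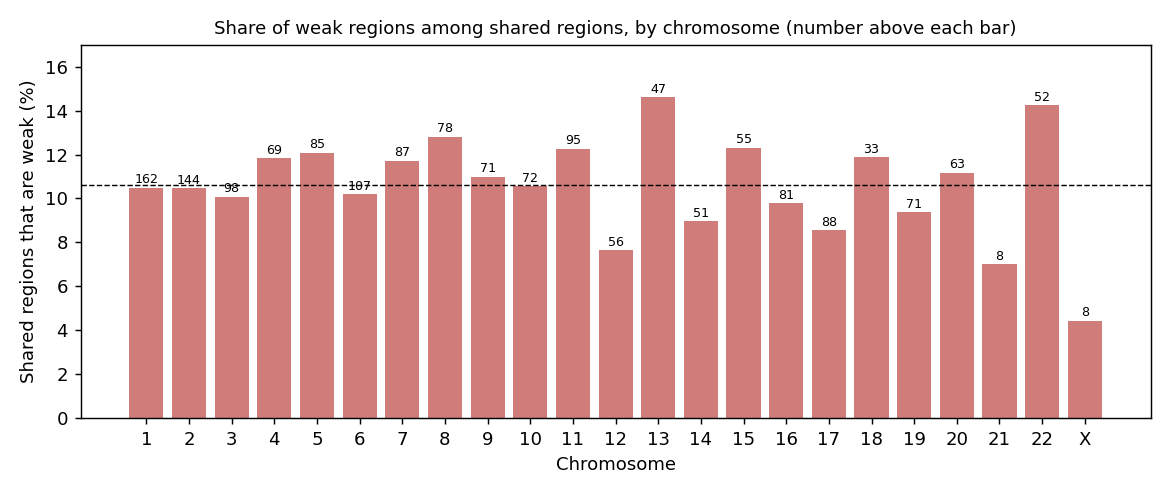
Bars show, for each chromosome (x axis), the percent of regions with a peak in all 6 lists that were weak, with the number of weak regions above each bar. The dashed line is the share over all chromosomes, 10.6%. Chromosome 13 is highest with 14.6% and chromosome X lowest with 4.44%.

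The comparison of treatments asks whether insulin moved FoxK1 at these sites. Percentiles chose the members, so their order by treatment is a description. At 176 members (10.5%) all 3 insulin percentiles lay above all 3 untreated ones, against 8.64% of all shared regions. The reverse held at 24 members (1.43%), against 0.850% of all shared regions. Both shares were somewhat above those of shared regions in general, where higher ranks after insulin were also the more frequent. With all lists shortened to the same number of strongest peaks, which gave 2155 members, 92 were higher (4.27%, against 5.03% of all shared regions) and 89 lower (4.13%, against 3.81%). At equal length the members' higher and lower counts were thus nearly the same. Leaving out a library also redefines the members and leaves fewer percentiles to order, and both counts rose with any library left out, to between 200 and 414 higher and between 40 and 77 lower. The largest count of higher members, 414 without insulin replicate 3, was 24.6% of members against 28.4% of shared regions. Without untreated replicate 3 it was 354 (19.1% against 12.7%), and without untreated replicate 1 it was 272 (20.6% against 23.2%). Whether members or shared regions in general had the larger share of higher ranks thus changed with the library left out.

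Percentiles of same-numbered libraries deviated together, so the order was also read within each number. The insulin percentile was above the untreated one in all 3 same-numbered pairs at 422 members (25.1%), against 27.4% of all shared regions. It was below in all 3 pairs at 69 members (4.10%), against 4.61%. Within pairs, the members therefore stood slightly under the general share in either direction, the opposite of the unpaired counts. A difference of the members from other shared regions in their order by treatment was not tested.

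The largest gap in favour of insulin was at chromosome 4, 79696132 to 79698293. Its percentiles were 49.0, 67.8 and 52.0 in insulin replicates 1 to 3 and 5.08, 20.1 and 21.99 in untreated replicates 1 to 3, and its folds were 5.54, 8.30 and 5.42, and 2.28, 2.86 and 3.42. The groups did not overlap on either scale, but folds of different lists are not on a common scale. The median fold over all members was also higher in every insulin list than in every untreated list. No second reading is therefore taken from the folds. The summits of this region held 28, 50 and 19 fragments after insulin and 30, 28 and 14 without it. In replicate 1 the fragment numbers were thus alike while the ranks were not. Chromosome 4, 178362851 to 178363945, ranked at 47.4, 63.2 and 48.8 after insulin and 22.04, 15.1 and 19.7 without it. Chromosome 8, 97656616 to 97658380, ranked at 46.8, 51.2 and 56.5 against 15.1, 21.6 and 9.18, but no base of it lay inside a peak of all 6 lists. Chromosome 2, 230024767 to 230025287, and chromosome 7, 27169315 to 27170971, were next, with gaps of 21.5 and 19.8 percentiles. At the last of these the 6 summits lay within 44 bp.

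In the other direction the largest gap was at chromosome 5, 132165226 to 132166822. Percentiles there were 16.4, 25.2 and 26.0 in insulin replicates 1 to 3 and 47.6, 51.3 and 45.0 in untreated replicates 1 to 3. Its folds overlapped, at 3.25, 3.38 and 3.97 after insulin and 3.81, 4.13 and 3.96 without it. Chromosome 15, 68521393 to 68522535, was weak in all 6 lists, at 11.6, 20.6 and 8.23 after insulin and 38.6, 38.1 and 41.8 without it. Its summits spanned 823 bp. Chromosome 8, 26152200 to 26152878, had its 6 summits within 96 bp and ranked at 29.9, 19.6 and 27.2 against 46.5, 50.4 and 52.9. The other pair of the 5 were chromosome 11, 71236874 to 71238468, and chromosome 16, 82089588 to 82090405, with gaps of 15.2 and 8.97 percentiles. With 3 libraries against 3, no single region can reach an exact p under 0.1, so none of these is called changed.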

How the data were processed

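Peak lists of 6 FoxK1 libraries were used, 1 per library, of 12 samples. The submitters' processing notes name MACS2, Bowtie2, fastp and SAMtools, and build hg19. Their versions, the control and the threshold are not stated in the sources used here. The lowest −log10 p lay between 3.002 and 3.005 in all 6 lists, while −log10 q went lower. The deposited columns are the fold, a linear ratio of summit over background, the −log10 p and −log10 q, a score of 10 times the −log10 p, and the summit position. All are values of 1 list and were used to describe and rank peaks within it. Fragments and background at a summit were solved from the deposited fold, as (fragments + 1) over (background + 1), and −log10 p, as a Poisson upper tail. A whole number met the p within 0.0005 (in proportion above 10) for 100% of peaks.

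Peaks of the 6 lists sharing at least 1 bp were merged. The percentile is the share of the list's peaks with a lower −log10 q plus ties counted at equal parts above and below. The members and lists were chosen with earlier results of these data known. Regions are named by extremes over members on chromosomes 1 to 22 and X: 5 each by tightest summits, smallest and widest percentile spread, lowest mean percentile and largest gap between treatments in each direction, and up to 3 on each side of the threshold. Planned motif, promoter and gene list results were not computed, since no genome of the files' build was used here. Steps were tested on simulated data. Same-numbered libraries were taken as pairs because their deviations in percentile from the group mean correlated at 0.151, 0.218 and 0.266 over 15887 shared regions (insulin replicate 2 with untreated replicate 1 gave 0.108). Presence or absence of a peak over all 68127 regions gave 0.101, 0.0606 and 0.266, and 0.122 for insulin replicate 2 with untreated replicate 1. Log2 fold over the shared regions gave 0.220, 0.244 and 0.499, and 0.279 for that differently numbered pair. On both measures it exceeded the same-numbered pairs of replicates 1 and 2. The pairing thus depends on the measure, and paired and unpaired values are both given. The labels do not say what a number marks. Python 3.11.15, numpy 2.4.6, pandas 2.3.3, scipy 1.17.1 and matplotlib 3.10.9 were used.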

Additional observations from a re-analysis of the deposited data

How the results depend on the processing

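The number of members depended on the definition. It was 1682, and 971 when weak in at least 5 lists, 762 below the 40th percentile, 905 with peaks of −log10 q of at least 5, 748 with regions of summits within 100 bp, and 366 with at least 50% of the region covered in each list. It was 4790 of 25214 regions without both replicate 3 libraries, where weak in 3 of 4 lists was enough. Leaving out each library gave 1321 to 1858. Ranking by −log10 p changed no count. Ranking by fold gave 2459 members, of which 313 were higher after insulin (12.7%, against 10.8% of all shared regions) and 28 lower (1.14% against 0.969%). Lists of equal length gave 92 higher and 89 lower, the replicate block 422 and 69, and the lists without replicate 3 gave 1540 and 318 (32.2% and 6.64% of members, against 32.8% and 5.50% of shared regions). Leaving out each library gave 200 to 414 higher and 40 to 77 lower. The held-out difference ranged from -38.5 to -36.7 percentiles with each library left out and was -40.0 without both replicate 3 libraries. The held-out choice differed between these. It asked for weak in at least 3 of 4 lists with a library left out. Without both replicate 3 libraries it asked for weak in all 3 lists, and in the main result for at least 4 of 5. The offset difference from the other shared regions ranged from 36.05 to 46.75 bp and was 24.5 bp without both replicate 3 libraries. Both kept their direction in all of these, but 5 or 4 libraries cannot give a sign-flip p below 0.0625 or 0.125. The insulin-minus-untreated offset ranged from -12.5 to 4.58 bp and was -4.67 bp with the replicate block (exact sign-flip p = 0.5 over 3 pairs). The alternatives without both replicate 3 libraries, with the block on counts and on the held-out and offset differences, and with a common base, were chosen after seeing the data. With the replicate block, that is with 3 same-numbered sets as units, the held-out difference of -40.1 percentiles and the offset difference of 37.8 bp kept their values with p = 0.25 (exact sign-flip), the smallest possible, so both calls are lost by construction. Member summits in the replicate 3 lists rest on a median of 16 and 18 fragments, the fewest of the 6 lists.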

Other observations

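Regions found in fewer lists were more often weak. Weak in at least 2 of every 3 of the lists that have a peak, the members' own proportion, were 32.4% of the 5774 regions of 5 lists, 54.2% of the 7202 regions of 4 lists and 98.4% of the 23381 regions of a single list, where 1 weak list is enough. Of all peaks below the 50th percentile, regions with a peak in every list held 11.5%, 7.84% and 35.6% in insulin replicates 1, 2 and 3 and 12.5%, 28.5% and 38.4% in untreated replicates 1, 2 and 3, and the members held between 5.22% and 11.9%. Most weak peaks of every list therefore lay outside the regions found in all 6.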
